A study of Mus musculus with 7 samples.

Results

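The C/EBP family comprises transcription factors with a basic leucine zipper, and 5 of its genes, Cebpa, Cebpb, Cebpd, Cebpe and Cebpg, were followed here together with Gfi1, a zinc finger repressor of the granulocyte lineage. They were chosen by name, through the RefSeq accession that the arrays give for each probe, and by no threshold on their values. Each had 1 probe, so the 6 genes stand for 6 of the 55681 probes of the array and 6 of the 14529 genes that could be tested. In dendritic cell cultures labelled Gata2 knockout, Cebpe was 8.51-fold lower than in the controls. The other 5 genes did not pass the test, and Cebpb and Cebpd read lower on every array labelled knockout than on every control array.

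C/EBP proteins bind DNA as pairs, each partner contributing one leucine zipper, and members of the family can pair with each other. C/EBP alpha acts early in granulocyte and monocyte commitment, C/EBP beta and C/EBP delta act in macrophages and in inflammatory and acute phase responses, and C/EBP epsilon acts late, when granulocytes fill their secondary granules and when eosinophils mature. C/EBP gamma lacks an activation domain of its own and works as a partner, while Gfi1 recruits histone-modifying corepressors and is needed for neutrophil formation in mice.

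The arrays measured RNA of dendritic cells grown from common myeloid progenitors of C57BL/6 mice. The knockout group had 3 arrays from mice with a floxed Gata2 gene and a Cre recombinase fused to an estrogen receptor domain (ER-Cre). The control group had 4 arrays from Gata2(f/f) mice without the Cre, so all mice of both groups carried the floxed alleles and all were given tamoxifen between day 1 and day 10. Progenitors were sorted from bone marrow between day 20 and day 22 and cultured with FLT3 ligand at 200 ng/ml on bone marrow feeder cells of CD45.1+ SJL mice. The labels name neither the promoter that drives the Cre nor the age of the mice, do not say how feeder cells were kept out of the RNA, and do not say whether replicates came from separate mice. The p-values therefore measure the spread between these arrays, which may be technical. The source name of the knockout samples uses an abbreviation that the labels do not explain.

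All values are log2 of the background-corrected spot intensity minus the 75th percentile of the same array, so 0 is the brightness of that percentile. That percentile was 3326 to 3825 intensity units on the arrays labelled knockout and 2671 to 3303 units on the controls. The share of spots counted as well above background was 61.5% to 67.4% on the arrays labelled knockout, against 54.1% to 56.9% on the controls. Negative control spots were dimmer on the arrays labelled knockout, at -9.06 to -8.31, against -7.70 to -7.39 on the controls. Arrays correlated at 0.986 to 0.992 within groups and at 0.979 to 0.985 between groups across genes. All lay on 1 slide and came from 1 scan, and each group filled its own row of the slide, so row, Cre and group cannot be told apart. Dendritic cell markers were present in both groups: 12 of 13 were tested, including Flt3, Itgax, Siglech and Zbtb46, none was called in either direction, and Xcr1 was not tested. Of the 12, 7 had a negative change and 5 a positive one, while 58.0% of all genes had a negative change. The median log2 fold change of the 12 was -0.19, beside -0.05 over all genes. Cd209a read lower on every array labelled knockout than on every control (-0.66, limma adjusted p = 0.0614). In 6 of 20 alternative settings 1 of these markers was called lower.

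Gata2, the targeted gene, read 2.93, 3.00 and 3.06 on the arrays labelled knockout, against -0.25, 0.24, 0.36 and 0.34 on the controls. The groups did not overlap, with a log2 fold change of 2.82 (SE 0.17, limma adjusted p = 0.000149). This direction goes against the label for a probe inside the deleted part of the gene. No source used here places the probe relative to the deletion, so it does not check the labels, and every direction below is that of the arrays as labelled.

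Across all 14529 genes, 202 were lower in the arrays labelled knockout (1.39%) and 219 were higher (1.51%) at a limma adjusted p under 0.05. The median log2 fold change of all genes was -0.05, and the 5th and 95th percentiles were -0.59 and 0.60. Of all genes, 58.0% had a negative change. Of the 6 genes followed here, 1 was lower and none was higher. At an unadjusted p under 0.05, 1063 genes were lower (7.32%) and 892 higher (6.14%), and of the 6, Cebpa, Cebpb, Cebpd and Cebpe were lower and none was higher. On 1167 genes (8.03%) every array labelled knockout read below every control. Cebpb, Cebpd and Cebpe were 3 such genes among the 6, and none of the 6 read above every control on all arrays labelled knockout, as 838 genes did (5.77%). Each of the 6 probes was well above background on all 7 arrays, with no outlier and no saturated spot.

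**Figure D1:**
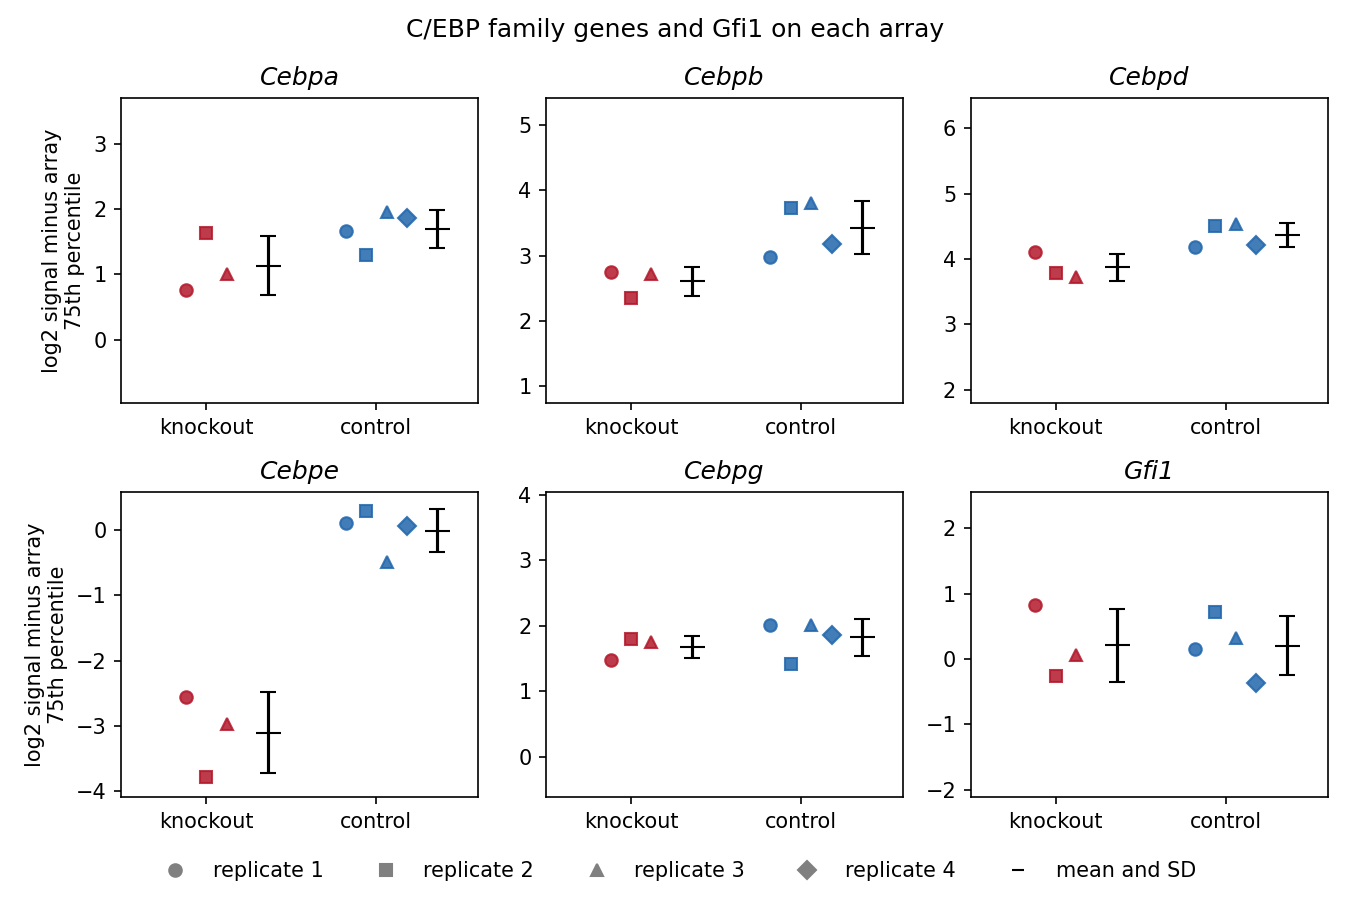
Log2 signal minus the 75th percentile of the array (y axis) of the 6 genes on the 3 knockout and 4 control arrays; each point is 1 array, its shape gives the replicate number, and bars show the group mean and SD. Each panel spans the same number of log2 units. Cebpe reads between -3.78 and -2.55 on the knockout arrays and between -0.49 and 0.28 on the controls, while Cebpa, Cebpg and Gfi1 overlap between groups.

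Cebpe encodes C/EBP epsilon, the family member of late granulocyte maturation. It read -2.55, -3.78 and -2.96 on the arrays labelled knockout, against 0.10, 0.28, -0.49 and 0.06 on the controls. The groups were far apart: the highest array labelled knockout, replicate 1, stayed 2.06 log2 units below the lowest control. In processed intensity the probe gave 567, 278 and 473 units on the arrays labelled knockout and 3540, 3773, 1905 and 3227 on the controls. The knockout mean was -3.10 ± 0.63 (SD, n = 3) and the control mean -0.01 ± 0.33 (SD, n = 4). The log2 fold change was -3.09 (SE 0.30, 95% interval -3.79 to -2.39, limma adjusted p = 0.00116), a level 8.51-fold lower with an interval from 5.25-fold to 13.8-fold. Of all genes tested, 36 (0.248%) had a lower log2 fold change. Cebpe was called in each of 20 alternative settings, with a log2 fold change between -3.36 and -2.74 and an adjusted p between 0.000249 and 0.0244. In these bulk cultures, fewer cells of a type that expresses Cebpe and less Cebpe RNA per cell cannot be told apart.

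Most markers of mast cells and basophils were lower on the same arrays as Cebpe. The 8 mast cell and basophil markers tested had a summed linear level of 0.761 to 1.04 times the 75th percentile on the arrays labelled knockout, against 9.79 to 21.7 times on the controls, and 6 of the 8 were called lower. Prss34, a basophil protease, and Cpa3, the mast cell carboxypeptidase, were among the 6. So was Ms4a2, a chain of the IgE receptor, which was not well above background in any culture labelled knockout. With 1 floor for all arrays the change of Ms4a2 was -0.80 and its call was lost (limma adjusted p = 0.0992). The other 2 markers, the mast cell protease genes Tpsb2 and Mcpt4, had a positive change and were not called. Of the 8 neutrophil markers tested, 1 was called lower, Mmp8, which also stands in the granule list below. The summed level of the 8 markers was 9.84 to 17.7 on the arrays labelled knockout, against 23.6 to 28.0 on the controls. Their median change was -2.08, and relative to the control mean the median stood at -0.10 on replicate 1 of the arrays labelled knockout and at -2.89 and -3.02 on replicates 2 and 3. Without replicate 1, 5 of the 8 were called lower, and without replicate 3 or control replicate 3 none was. The eosinophil marker list holds none of the 4 eosinophil genes called lower, Ear1, Ear2, Ear10 and Prg3, whose values follow with the eosinophil genes. None of its 5 markers tested was called by limma and 1 was lower at an unadjusted p under 0.05, with a median of -0.58 and sums of 0.635 to 0.762 on the arrays labelled knockout against 0.838 to 1.61 on the controls. Of the 7 monocyte and macrophage markers tested, 3 were called lower, with sums of 51.2 to 63.0 in the arrays labelled knockout against 72.8 to 88.6 in the controls. The 3 were Cd14, a lipopolysaccharide coreceptor, C1qc, a complement chain, and Adgre1, the F4/80 antigen. With knockout replicate 1 or 3 left out, 1 of the 7 was called. With 1 floor for all arrays, C1qc lost its call (-1.91, limma adjusted p = 0.113). The part of these markers in the Cebpe difference was not tested.

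Cebpb encodes C/EBP beta, an activator of cytokine and acute phase genes in macrophages. It read 2.74, 2.35 and 2.73 on the arrays labelled knockout, against 2.98, 3.74, 3.80 and 3.18 on the controls. All 3 arrays labelled knockout lay below all 4 controls, but the controls spread over 0.82 log2 units and control replicate 1 lay 0.24 above the nearest array labelled knockout. The knockout mean was 2.61 ± 0.22 (SD, n = 3) and the control mean 3.43 ± 0.40 (SD, n = 4), a log2 fold change of -0.82 (SE 0.23, unadjusted 95% interval -1.35 to -0.28). That difference did not pass over all genes (limma adjusted p = 0.145), nor in any of the 20 alternatives, where the lowest adjusted p was 0.0691.

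Cebpd encodes C/EBP delta, which is switched on in acute phase responses. It read 4.11, 3.78 and 3.72 on the arrays labelled knockout, against 4.19, 4.50, 4.53 and 4.22 on the controls. The groups did not overlap, although replicate 1 of the arrays labelled knockout came within 0.08 log2 units of control replicate 1. The knockout mean was 3.87 ± 0.21 (SD, n = 3) and the control mean 4.36 ± 0.18 (SD, n = 4). The log2 fold change of -0.49 (SE 0.16, unadjusted 95% interval -0.86 to -0.13) did not pass (limma adjusted p = 0.202), and its lowest adjusted p in the 20 alternatives was 0.105. Cebpb and Cebpd ranked the 7 arrays in much the same order (Spearman's rho 0.96). Pearson's r of their values was 0.93, and 0.78 for their deviations from the group means. These values describe 7 arrays that share their scaling and fall into the 2 groups.

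Cebpa encodes C/EBP alpha, which is required for the step to granulocyte and monocyte progenitors. It read 0.77, 1.63 and 1.00 on the arrays labelled knockout, against 1.67, 1.30, 1.96 and 1.86 on the controls. The groups overlapped, since replicate 2 of the arrays labelled knockout lay above control replicate 2. The knockout mean was 1.13 ± 0.45 (SD, n = 3) and the control mean 1.70 ± 0.29 (SD, n = 4), with a log2 fold change of -0.56 (SE 0.24, unadjusted 95% interval -1.12 to -0.01, limma adjusted p = 0.364). Over the alternatives the change ran from -0.81, without replicate 2 of the arrays labelled knockout, to -0.38, without replicate 1. Cebpa was the lowest of the 3 on replicate 1, where Cebpe was the highest of the 3, and it was the highest on replicate 2, where Cebpe was the lowest. The deviations of Cebpa and Cebpe from their group means had a Pearson's r of -0.93 over the 7 arrays.

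Cebpg encodes C/EBP gamma, the partner without an activation domain, and lies beside Cebpa on mouse chromosome 7, with 1 annotated gene and no protein-coding gene between them in the RefSeq table of GRCm38.p6. It read 1.48, 1.80 and 1.75 on the arrays labelled knockout, against 2.02, 1.42, 2.01 and 1.85 on the controls. The arrays labelled knockout lay inside the range of the controls. The knockout mean was 1.68 ± 0.17 (SD, n = 3) and the control mean 1.82 ± 0.28 (SD, n = 4). The log2 fold change was -0.15 (SE 0.18, limma adjusted p = 0.79), with a 95% interval from -0.56 to 0.27 that leaves room for a level up to 1.48-fold lower. The deviations of Cebpa and Cebpg from their group means had a Pearson's r of 0.76.

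Gfi1 encodes a repressor that holds back monocyte genes in developing neutrophils of mice. It read 0.82, -0.25 and 0.06 on the arrays labelled knockout, against 0.15, 0.72, 0.32 and -0.37 on the controls. The groups covered nearly the same range, with replicate 1 of the arrays labelled knockout the highest of the 7 and control replicate 4 the lowest. The knockout mean was 0.21 ± 0.55 (SD, n = 3) and the control mean 0.20 ± 0.45 (SD, n = 4), a log2 fold change of 0.01 (SE 0.32, limma adjusted p = 0.995). The 95% interval from -0.72 to 0.73 covers a level up to 1.65-fold lower, so the arrays do not show that Gfi1 was the same in both groups. The sign of this change turned under several settings, among them the normexp background correction (-0.02) and leaving out replicate 1 of the arrays labelled knockout (-0.30).

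**Figure D2:**
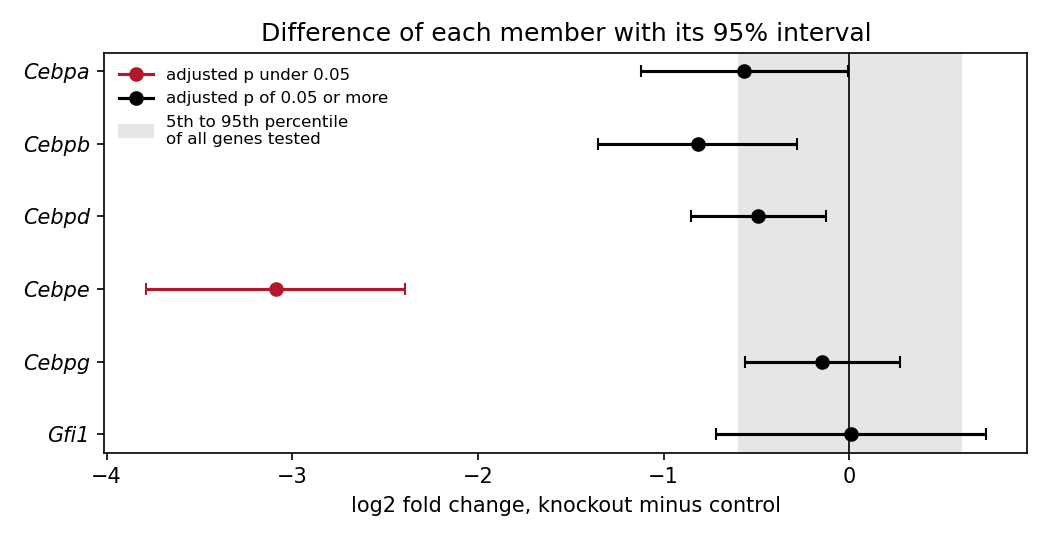
Log2 fold change, knockout minus control (x axis), of the 6 genes with its unadjusted 95% interval; the shaded band runs from the 5th to the 95th percentile of all 14529 genes tested. The interval of Cebpe, from -3.79 to -2.39, lies apart from those of the other 5 genes, whose lowest bound is -1.35.

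Promoters, from 250 bases before to 50 bases after the annotated start, were read from a RefSeq table of GRCm38.p6 that holds 4 of the 6 genes, Cebpa, Cebpb, Cebpg and Gfi1. Both strands were searched for a C/EBP site, TTGCNNAA, which 10.8% of 32851 promoters of this length hold, and for a GATA site, GATAA, which 25.4% hold. By their letters, a match of one motif cannot overlap a match of the other. The Gfi1 promoter (chr5:107725756-107726055, minus strand) held 1 C/EBP match, beginning 143 bases before the start, and that of its other annotated start held none. None of the other 3 held one, and none of the 4 held a GATA match. The Gfi1 sequence is shown because it was the one C/EBP match among the 4 promoters, and capitals mark the match.
Gfi1: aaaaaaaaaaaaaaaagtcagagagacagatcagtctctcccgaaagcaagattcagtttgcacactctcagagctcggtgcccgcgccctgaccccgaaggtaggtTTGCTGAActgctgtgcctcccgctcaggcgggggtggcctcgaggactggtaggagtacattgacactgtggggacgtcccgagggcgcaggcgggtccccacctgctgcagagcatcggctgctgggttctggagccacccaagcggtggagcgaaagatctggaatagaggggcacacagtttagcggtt

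For each gene, up to 5 genes with the most similar pattern over the 7 arrays were taken from 14494 genes measured on all arrays. For Cebpe these were Ear2 (r = 0.992), an eosinophil-associated ribonuclease, Hdc (r = 0.990), the enzyme that makes histamine, Cldn15 (r = 0.988), a claudin, Ear1 (r = 0.985) and Gdf15 (r = 0.985), a secreted factor of the TGF-beta superfamily. All 5 were called lower. Cldn15 averaged -2.98 in the arrays labelled knockout and -0.79 in the controls, or -2.19 on the log2 scale (SE 0.19, limma adjusted p = 0.000474). Gdf15 averaged -3.73 in the arrays labelled knockout and -1.81 in the controls, or -1.92 on the log2 scale (SE 0.27, adjusted p = 0.00803). These r values are descriptions over 7 arrays in 2 groups, so they include the difference between the groups. The genes were picked for likeness to Cebpe on the same arrays, so their calls follow in part from that choice and are no separate support.

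The genes most like the other members were not called, which also follows in part from how they were picked. For Cebpb they were Aldh3b1, Nmt1, Fdx1, Ift20 and Mettl7a1, with r between 0.975 and 0.985. Those for Cebpd were Snrpd2, H2ac1, Nkiras2, Nit2 and Mrps23 (r between 0.986 and 0.993), and those given for Cebpa are Slc35b4, Myo1f, Tppp and Rassf4 (r between 0.980 and 0.987). Cebpg had Btg1c, Stt3a, Pilrb1, Cox10 and Fcgrt, at 0.971 to 0.986. Gfi1 had Ube2d2a, Il1b, Nfkbia, Cyp2d10 and Agrn, at 0.978 to 0.985. Of these, Il1b is the gene of interleukin-1 beta and Nfkbia encodes the inhibitor of NF-kappa B. Il1b read -2.21, -3.96 and -3.60 on the arrays labelled knockout, against -4.11 to -2.30 on the controls, so that it shared with Gfi1 a high replicate 1 and a low control replicate 4. For Gfi1 even the gene at rank 1000 had an r of 0.76, and for Cebpe 0.75, so that high values are common over 7 arrays.

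Of 7 tested genes listed as C/EBP partners and regulators, none was called higher and none lower. Their median log2 fold change was 0.22, the value of Cebpz, beside -0.05 over all genes. At an unadjusted p under 0.05 in limma, 2 were higher. For Cebpz, no pairing with C/EBP proteins or action on them is claimed here. Trib2, a pseudokinase that targets C/EBP alpha for degradation, read -5.42, -4.18 and -4.71 on the arrays labelled knockout, against -6.30, -5.15, -6.39 and -6.26 on the controls. Only 1 of 4 controls had it well above background and the groups overlapped, while the change was 1.25 (SE 0.38, limma adjusted p = 0.165), and it was called higher without control replicate 2 (1.55, adjusted p = 0.0432). Trib1, which acts on C/EBP alpha in the same way, read -1.59, -1.87 and -1.73 on the arrays labelled knockout, against -1.88, -2.63, -1.95 and -2.33 on the controls. Its groups all but touched, at -1.87465 on replicate 2 of the arrays labelled knockout and -1.8753 on control replicate 1. The change of 0.47 did not pass (limma adjusted p = 0.369). Ddit3, which encodes the C/EBP relative CHOP, had a change of -0.16, Cebpz of 0.22, and the zipper factor genes Atf4 and Atf5 of -0.10 and 0.46.

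Of the 7 corepressors and partners of Gfi1, none was called in limma, with a median of -0.03, and at an unadjusted p under 0.05 1 was lower and 1 higher. Gfi1b, the paralogue that works in red cell and platelet precursors, read 2.25, 1.88 and 2.39 on the arrays labelled knockout, against 1.44, 1.88, 1.58 and 1.43 on the controls. Its change of 0.59 did not pass (SE 0.18, limma adjusted p = 0.161). Kdm1a, the histone demethylase that Gfi1 recruits, had a change of -0.31, and its cofactor Rcor1 one of 0.90, read as 2.13, 0.24 and 1.55 on the arrays labelled knockout. Zbtb17, which encodes the Gfi1 partner MIZ1, had a change of -1.24 but was well above background on 2 arrays labelled knockout and 2 controls. Genes known as repressed by Gfi1 were not called either, at 0 of 8 in each direction and a median of -0.31, with 2 lower at an unadjusted p under 0.05. The widest difference among them was in Egr1, an early response factor, at 0.28, -0.34 and -1.57 on the arrays labelled knockout against 1.64, 1.43, 0.80 and 0.53 on the controls (log2 fold change -1.64, SE 0.45, adjusted p = 0.126). Id2 and Egr2 had changes of -0.62 and -1.11 and Meis1 one of 0.47. Without control replicate 4, Id2 was called lower (-0.76, adjusted p = 0.0397), and without replicate 2 of the arrays labelled knockout, Rcor1 was called higher (1.44, adjusted p = 0.0293).

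**Figure D3:**
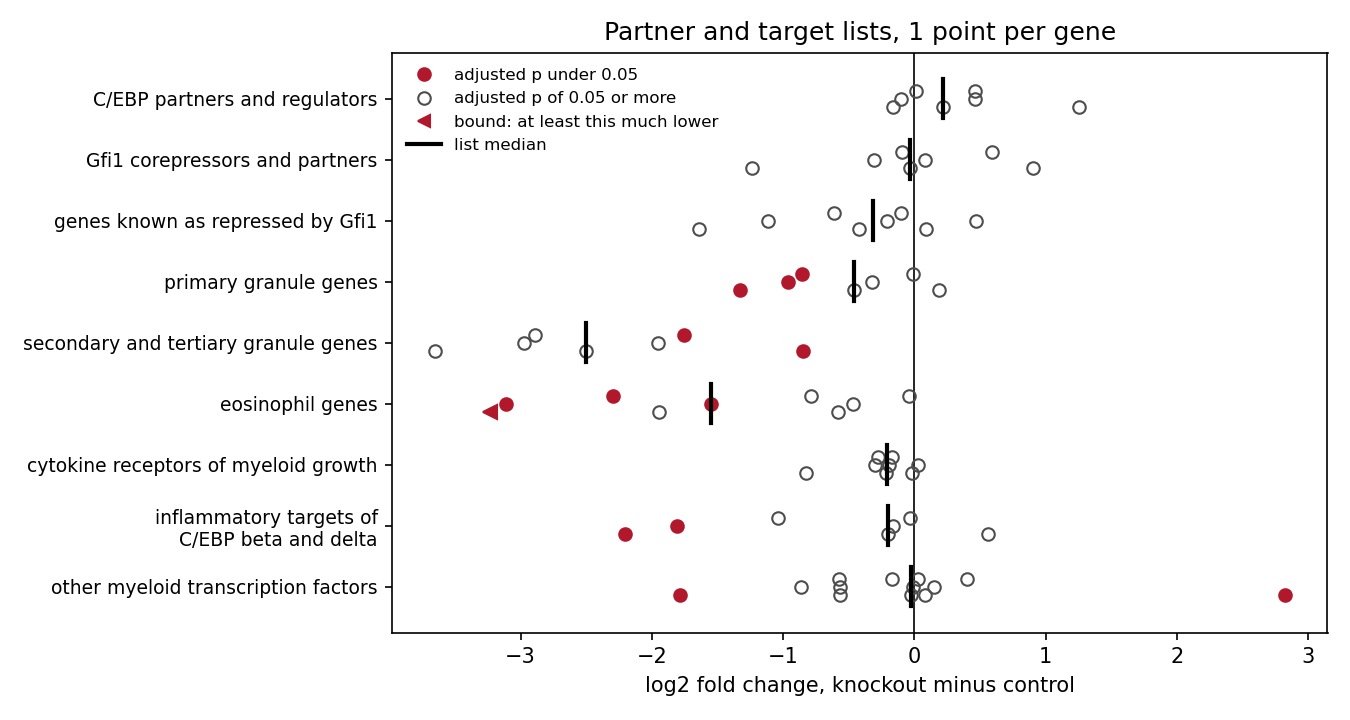
Log2 fold change, knockout minus control (x axis), of each tested gene of 9 lists of partners, targets and related factors; filled symbols have a limma adjusted p under 0.05, open symbols do not, the triangle is a bound for Ear1, which was never well above background on a knockout array, and black bars are list medians. The secondary and tertiary granule list has the lowest median, -2.50, with 2 of its 7 genes called.

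Primary granule genes, which C/EBP alpha is known to switch on in early granulocyte precursors, were lower in part. Of 7 tested, 3 were called lower and none higher, with a median of -0.46. Lyz2, the gene of lysozyme, read 1.65, 1.44 and 1.87 on the arrays labelled knockout, against 2.96, 2.70, 2.89 and 3.38 on the controls (log2 fold change -1.33, SE 0.19, limma adjusted p = 0.00805). The serine protease genes Prtn3 and Elane had changes of -0.96 (SE 0.18, adjusted p = 0.0283) and -0.86 (SE 0.17, adjusted p = 0.0348). For these 3 genes the groups did not overlap. Mpo, the gene of myeloperoxidase, read 5.09, 4.82 and 4.88 on the arrays labelled knockout, against 5.45, 5.43, 5.45 and 5.22 on the controls, and its change of -0.46 did not pass (adjusted p = 0.146). Ctsg, Prss57 and Ms4a3 had changes between -0.32 and 0.19. Leaving out replicate 2 or 3 of the knockout group, or control replicate 1, 3 or 4, reduced the count of 3 to 1.

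Secondary and tertiary granule genes, the class known to need C/EBP epsilon in mice, had 7 of 12 members tested: Mmp9, Mmp25, Cd177 and Itgb2l fell short of the background filter and Olfm4 had no named probe. All 7 had a negative change, as did 58.0% of all genes. Their median was -2.50, and 2 were called lower. Hp, the gene of haptoglobin, read 2.95, 2.40 and 2.63 on the arrays labelled knockout, against 4.42, 4.42, 4.56 and 4.26 on the controls (log2 fold change -1.76, SE 0.16, limma adjusted p = 0.000752). Mmp8, the neutrophil collagenase gene, read 3.44, 3.15 and 3.48 on the arrays labelled knockout, against 4.18, 4.13, 4.39 and 4.13 on the controls (-0.85, SE 0.14, adjusted p = 0.0156). The 5 others split the arrays labelled knockout. Ltf, the gene of lactoferrin, read -1.43, -4.46 and -3.51 on them, against -0.19, -0.25, -0.88 and -1.18 on the controls (-2.50, SE 0.64, adjusted p = 0.101). Camp, the gene of the antimicrobial peptide cathelicidin, read 0.62, -3.80 and -4.42, against 1.33, 1.04, -0.66 and 0.05 on the controls (-2.98, SE 1.13, adjusted p = 0.288). Chil3, Lcn2 and Ngp had changes of -2.89, -1.96 and -3.65 (adjusted p = 0.129, 0.134 and 0.141), and of the arrays labelled knockout 1 had Ngp well above background.

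For Ltf, Lcn2, Chil3, Camp and Ngp, replicate 1 of the arrays labelled knockout stood nearer to the controls than replicates 2 and 3 did, while its Cebpe level was low. Relative to the control mean, the median of the 7 granule genes was -0.77 on replicate 1 and -3.44 and -3.16 on replicates 2 and 3, where Cebpe stood at -2.54, -3.77 and -2.95. The neutrophil marker S100a8 encodes a subunit of calprotectin and was picked for its values. It read -0.18, -3.17 and -3.34 on the arrays labelled knockout, against -0.40, 0.56, -0.06 and -0.18 on the controls. Without replicate 1, 6 of the 7 granule genes were called lower, among them Ltf (-3.36, limma adjusted p = 0.005) and Chil3, a chitinase-like protein gene (-3.97, adjusted p = 0.0038). Mmp8 was not (-0.89, adjusted p = 0.0503), and Cebpe remained called (-3.36, adjusted p = 0.00201). Without replicate 3, or without control replicate 3, 1 of the 7 was called. What sets replicate 1 apart was not tested.

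**Figure D4:**
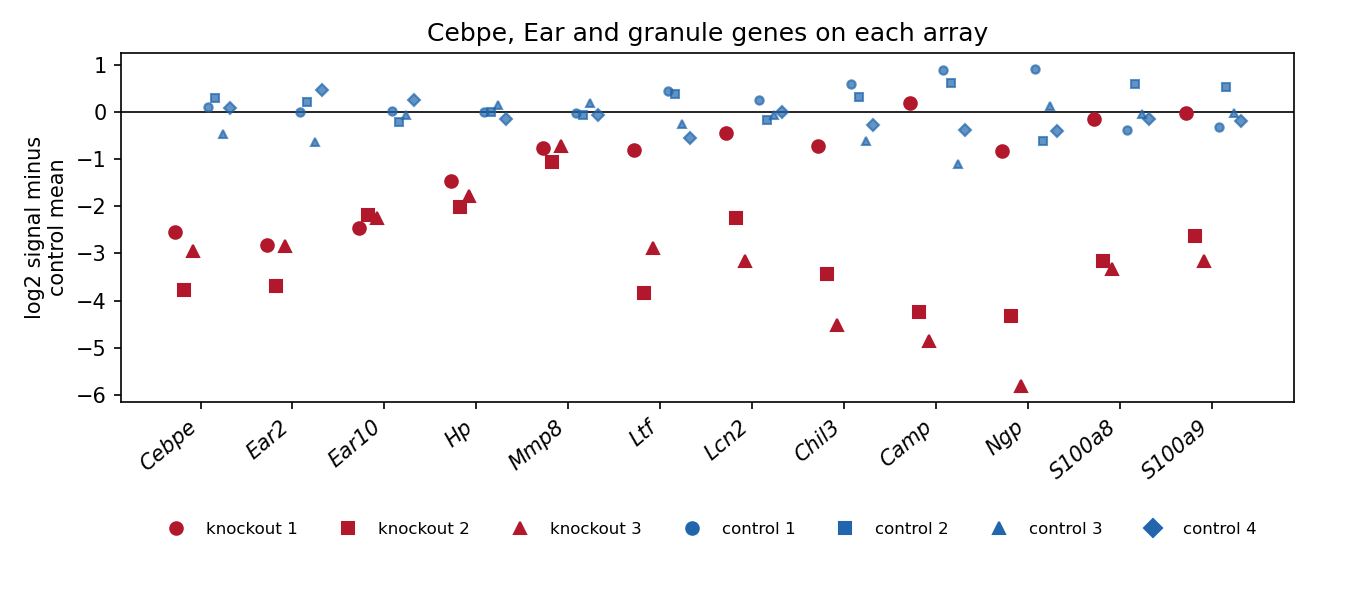
Log2 signal minus the mean of the 4 controls (y axis) for Cebpe, a pair of eosinophil-associated ribonuclease genes, 7 granule genes and the calprotectin genes S100a8 and S100a9; large red symbols are the 3 knockout arrays and small blue symbols the 4 controls, with the shape giving the replicate. Knockout replicate 1 lies with the other knockout arrays for Cebpe, Ear2, Ear10, Hp and Mmp8, and close to the controls for Camp, S100a8 and S100a9.

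Eosinophil genes, another class known to need C/EBP epsilon, had 9 of 10 members tested. All 9 had a negative change, as did 58.0% of all genes. Their median was -1.55, and 4 were called lower. Ear2 read -4.91, -5.77 and -4.93 on the arrays labelled knockout, against -2.10, -1.90, -2.74 and -1.64 on the controls (log2 fold change -3.11, SE 0.31, limma adjusted p = 0.0012). Ear10 read -4.77, -4.50 and -4.56 on the arrays labelled knockout, against -2.30, -2.52, -2.38 and -2.06 on the controls (-2.29, SE 0.15, adjusted p = 0.000173). Neither gene's groups came near each other. Ear1 was never well above background in the arrays labelled knockout and was at least 9.43-fold lower, the bound being the dimmest signal counted as well above background on each array (adjusted p = 0.0022 of the fit without a floor). Its call was lost when 1 floor was used for all arrays (adjusted p = 0.135), and the median of the list is unchanged with Ear1 at its bound. Prg3, a granule protein gene, fell by 1.55 on the log2 scale (SE 0.19, adjusted p = 0.00395).

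The remaining eosinophil genes did not pass. Ear6 read -3.68, -3.89 and -3.81 on the arrays labelled knockout, against -3.67, -3.94, -3.77 and -3.62 on the controls (log2 fold change -0.04, limma adjusted p = 0.931). Epx, the eosinophil peroxidase gene, had a change of -0.79 with separated groups (adjusted p = 0.0681), and the receptor genes Il5ra and Siglecf had changes of -0.58 and -0.47. Prg2, the gene of the major basic protein, read -5.16, -5.05 and -4.90 on the arrays labelled knockout, against -5.38, -5.38, -0.40 and -1.22 on the controls. It was bright on control replicates 3 and 4 alone. The dimmest signal counted as well above background was -7.13 to -6.21 on the arrays labelled knockout, against -5.59 to -5.32 on the controls. Epx, Il5ra and Prg2 read near that limit on some controls. The part of this difference in their negative changes was not tested. The Ear genes are close copies of each other, so a probe of one may also bind RNA of another, and their values are uncertain as to the copy. The sums of mast cell, neutrophil and eosinophil markers given for Cebpe were lower on the same arrays as the granule and eosinophil genes. Mmp8, Ltf, Ngp and Camp stand both among the neutrophil markers and in the granule list. All tested eosinophil markers also stand in the eosinophil gene list, so the neutrophil and eosinophil sums are not separate from those lists. The part of the markers in these lists was not tested.

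The RefSeq promoters of the Ear genes show that closeness. Over the 300 bases, in a global alignment with gaps, Ear2 shared 98.0% of bases with Ear1, 91.3% with Ear10 and 85.7% with Ear6. Ear2, Ear1 and Ear10, all called lower, each held 1 C/EBP match and 1 GATA match, whereas Ear6 held the GATA match alone. As near copies, Ear2, Ear1 and Ear10 are not separate cases. Prg3, also called lower, held no C/EBP match, and the part of the site in these calls was not tested. The promoters of Ear2 (chr14:44102404-44102703, plus strand), Ear10 (chr14:43923547-43923846, minus strand) and Ear6 (chr14:51853518-51853817, plus strand) are given because they set called genes beside one that was not. Capitals mark the C/EBP match, TTGCACAA, and the GATA match on the opposite strand, TTATC.
Ear2: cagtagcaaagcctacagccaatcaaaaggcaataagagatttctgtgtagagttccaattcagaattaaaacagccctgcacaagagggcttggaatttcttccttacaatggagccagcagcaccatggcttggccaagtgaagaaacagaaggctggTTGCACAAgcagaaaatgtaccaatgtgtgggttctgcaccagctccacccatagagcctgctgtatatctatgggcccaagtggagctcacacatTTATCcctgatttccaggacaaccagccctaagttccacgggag
Ear10: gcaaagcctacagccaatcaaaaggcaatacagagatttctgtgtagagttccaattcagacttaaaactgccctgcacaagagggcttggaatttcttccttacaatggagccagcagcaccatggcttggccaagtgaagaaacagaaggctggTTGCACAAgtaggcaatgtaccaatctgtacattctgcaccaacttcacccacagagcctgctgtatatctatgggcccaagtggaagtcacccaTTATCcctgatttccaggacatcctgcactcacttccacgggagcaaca
Ear6: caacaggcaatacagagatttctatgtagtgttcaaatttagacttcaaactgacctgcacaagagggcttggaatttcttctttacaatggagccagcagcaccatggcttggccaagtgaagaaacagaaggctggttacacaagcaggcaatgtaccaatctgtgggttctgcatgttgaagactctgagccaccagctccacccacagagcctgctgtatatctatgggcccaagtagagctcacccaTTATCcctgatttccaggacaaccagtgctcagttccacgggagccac

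Of 7 tested inflammatory genes known as targets of C/EBP beta and delta, 2 were called lower and none higher, with a median of -0.20. Saa3, an acute phase serum amyloid gene, read -2.50, -3.78 and -3.42 on the arrays labelled knockout, against -1.27, -1.23, -0.72 and -0.91 on the controls (log2 fold change -2.20, SE 0.30, limma adjusted p = 0.00656). Il6, the gene of interleukin-6, read -4.55, -5.65 and -4.19 on the arrays labelled knockout, against -3.51, -2.52, -3.24 and -2.69 on the controls. Its change of -1.81 (SE 0.38, adjusted p = 0.0465) lost its call in 14 of 20 alternatives, where the adjusted p reached 0.257. Clec4e, the receptor Mincle, had a change of -1.04 with separated groups (adjusted p = 0.0549, and 0.0293 with knockout replicate 2 left out), and Tnf one of 0.56 in the opposite direction (adjusted p = 0.133). Il1b, Ptgs2 and Nos2 had changes between -0.20 and -0.03. On the same arrays, 3 of 7 monocyte and macrophage markers were called lower and none higher, with a median of -0.88, and Cd14 had a change of -1.61 (adjusted p = 0.000226). Their part in the inflammatory list was not tested.

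Over all 9 lists 12 genes were called lower, of which 10 have a promoter in the table. Of the 10, 6 held a C/EBP match (Ear1, Ear2, Ear10, Il6, Mmp8 and Saa3), and 6 held a GATA match. Over all 32851 promoters, 10.8% held the C/EBP site and 25.4% the GATA site. The called genes Lyz2, Prtn3, Elane and Prg3 held no C/EBP match. List genes that were not called also held C/EBP matches: Ltf, Ngp, Lcn2, Clec4e, Ptgs2, Il3ra, Ms4a3 and Zeb2. Several lists were picked as known targets of C/EBP proteins, so the counts do not test the sites. The matches are letters in a short window, and the Ear genes share their sequence. The promoters of Saa3 (chr7:46715627-46715926, minus strand) and Mmp8 (chr9:7558179-7558478, plus strand) are given as the examples outside the Ear genes with the lowest adjusted p. Capitals mark the C/EBP match on the opposite strand in Saa3, TTATGCAA, with its GATA match TTATC, and the C/EBP match TTGCTCAA in Mmp8.
Saa3: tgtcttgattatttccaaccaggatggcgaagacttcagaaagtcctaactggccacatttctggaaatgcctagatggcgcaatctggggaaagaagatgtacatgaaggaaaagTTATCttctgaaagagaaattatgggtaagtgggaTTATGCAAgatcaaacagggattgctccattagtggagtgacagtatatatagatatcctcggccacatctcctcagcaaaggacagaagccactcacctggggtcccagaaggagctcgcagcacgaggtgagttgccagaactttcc
Mmp8: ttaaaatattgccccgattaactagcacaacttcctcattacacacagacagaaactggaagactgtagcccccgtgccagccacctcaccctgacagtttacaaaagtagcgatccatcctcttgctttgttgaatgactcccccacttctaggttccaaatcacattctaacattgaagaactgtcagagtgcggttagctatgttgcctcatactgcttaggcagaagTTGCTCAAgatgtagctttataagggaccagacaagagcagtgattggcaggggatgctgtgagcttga

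Cytokine receptors of myeloid growth, some of which C/EBP alpha is known to activate, were not called in either direction, at 0 of 8 by limma with a median of -0.21, and none passed at an unadjusted p under 0.05. Csf3r, the receptor gene of granulocyte colony-stimulating factor, read 6.64, 6.15 and 6.31 on the arrays labelled knockout, against 6.46, 6.57, 6.70 and 6.44 on the controls (log2 fold change -0.17, limma adjusted p = 0.691). Csf1r, Csf2ra and Csf2rb had changes of -0.30, -0.28 and -0.22. Il6ra, the receptor gene of interleukin-6, read 2.29, 4.08 and 3.61 on the arrays labelled knockout, against 4.21, 4.17, 4.28 and 3.94 on the controls, with the low value on replicate 1 (-0.82, adjusted p = 0.397).

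Among 13 other myeloid transcription factors, Gata2 was higher and 1 was lower, with a median of -0.03. The lower one, Maf, a zipper factor of macrophages, read -3.41, -2.89 and -3.80 on the arrays labelled knockout, against -1.18, -1.82, -1.50 and -1.84 on the controls (log2 fold change -1.78, SE 0.25, limma adjusted p = 0.00748). Gata1, which works with Gata2 in mast cell and eosinophil precursors, had a change of -0.86 with separated groups (adjusted p = 0.0685). Klf4, a zinc finger factor of monocytes, read 3.70, 3.91 and 3.41 on the arrays labelled knockout, against 4.11, 4.50, 4.12 and 4.23 on the controls, with separated groups and a change of -0.57 that did not pass (adjusted p = 0.157). Spi1, the gene of PU.1, which acts beside C/EBP alpha in myeloid commitment, read 0.71, -0.18 and 1.16 on the arrays labelled knockout, against 0.84, 0.00, 0.71 and 0.82 on the controls, with a change of -0.03.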

How the data were processed

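RNA of 7 dendritic cell cultures was hybridised to one-colour Agilent arrays with Cy3 dye, per the labels' protocols. The spot intensity in the deposited scanner files was extracted by the authors with Agilent Feature Extraction (version 10.7.3.1 in the headers), and its background-corrected processed signal was used. The deposited series table holds log2 values centred for each probe, with scale and centring found by comparison with the scanner values, and was an alternative; its column medians were 0 except for replicate 3 labelled knockout, at -0.02.

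From log2 of the processed signal the 75th percentile of each array over non-control spots was subtracted. Spots marked as outliers were dropped and replicate spots averaged. Testing required a probe to be well above background on 3 or more of 7 arrays and to have at least 2 values in each group (34057 of 55681). Names came from unversioned RefSeq accessions matched to GRCm38.p6 (26413 probes, 47.4%), and the tested probe with the highest mean stood for its gene. Groups were compared with limma 3.58.1 in R 4.3.3 (lmFit and eBayes, Benjamini-Hochberg over 14529 genes, threshold 0.05), with no covariate. On simulated data for this comparison with its 14529 genes, 55% of genes changed by 1 and 89.8% of those changed by 2 on the log2 scale were recovered, and 7.17% of calls were unchanged genes. The number of arrays limits the precision.

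The 6 genes and the lists were chosen with earlier results of these data known. The naming rule took all 6 genes, Gata2, up to 4 genes of each list by adjusted p with all tested granule and eosinophil genes, and 5 genes most like each member; other list genes appear as values. Some genes that these rules took are not reported here. Prss34, Cpa3, Tpsb2, Mcpt4 and S100a8 are markers named after their values were seen. Alternatives covered background correction, normalization, filters, outlier spots, variance model, array weights, probe choice, floors, a block on the replicate number and leaving out single arrays. The block was fitted without control replicate 4. Protein sequences were not used here.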

Additional observations from a re-analysis of the deposited data

Results flagged for a closer look

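Among the 42 genes examined, 4 had 1 control array far from the other 3, by the share of the group's range that its gap to the nearest array takes. About 1 in 20 groups is picked in this way by chance. Mpo was lowest on control replicate 4 (5.22, with a gap of 0.899 of the range). Trib2 was highest on control replicate 2 (-5.15, gap 0.896), the one control on which it was well above background. Mmp8 was highest on control replicate 3 (4.39, gap 0.835), and Tnf was lowest on control replicate 2 (0.15, gap 0.834). None of the 6 genes of the family met this rule, and for Cebpe the lowest control, replicate 3, had a gap of 0.719 of the range.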

How the results depend on the processing

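Over 20 alternatives each, Cebpe alone of the 6 genes was called, and Cebpa, Cebpb, Cebpd and Cebpg kept a negative sign without passing. Gfi1 turned to -0.0226 with normexp background correction and -0.000162 with the series table, and ran from -0.30 to 0.24 with 1 array left out. The replicate block was fitted without control replicate 4 and gave -0.18, the same value as leaving out that array alone. The cause of these turns was not tested. Against 219 higher and 202 lower genes, 365 and 2483 were called without a filter on dim probes, where 20015 genes were tested. Negative control spots read lower on the arrays labelled knockout, at -9.06 to -8.31 against -7.70 to -7.39 on the controls. The part of this difference in the 2483 lower calls was not tested. Array weights gave 380 and 371. The replicate block, fitted without control replicate 4, gave 87 and 93, and the part of the array left out in its lost calls was not tested. With 1 array left out the counts ran from 91 to 227 and from 106 to 180. Over probes, 288 were higher and 179 lower. Deviations of same-numbered arrays correlated at -0.10, -0.17 and -0.05. With so few arrays, these correlations cannot show whether the numbers pair the arrays. With the block Cebpe stood at -3.06 (limma adjusted p = 0.0244), Lyz2, Saa3, Maf, Hdc and Gdf15 lost their calls (adjusted p = 0.0546, 0.0627, 0.0663, 0.0579 and 0.105), as did the markers Fcer1a, C1qc and Adgre1 (0.0663, 0.0954 and 0.112), Egr1 gained one (adjusted p = 0.0423), and 0 of 7 primary granule genes were called. Prtn3 and Elane each lost their call in 8 alternatives (adjusted p up to 0.133 and 0.215) and Mmp8 in 4 (up to 0.12). With array weights, Trib2, Gfi1b, Egr1, Ltf, Clec4e, Gata1 and Klf4 gained calls (adjusted p = 0.0267, 0.0181, 0.049, 0.0417, 0.00987, 0.0276 and 0.0417), and Clec4e and Gata1 also did with normexp (0.0197 and 0.0374). A slide block was not run, since all arrays lay on 1 slide. Signal over background limited Ear1 in the arrays labelled knockout to a bound. With 1 floor for all arrays, Ear1, Il6, Ms4a2 and C1qc lost their calls.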

Other observations

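Markers of other cell types that the cultures could hold were measured beside the C/EBP genes. Of 7 T cell markers tested, 2 were higher in the arrays labelled knockout in limma, Lck, a kinase of T cell receptor signalling, and Trat1, a receptor adaptor. The other 5 were not called. Of the 7, 5 had a positive change and 2 a negative one, with a median log2 fold change of 0.05. The summed level was 6.15 to 6.91 times the 75th percentile on the arrays labelled knockout, against 3.35 to 3.71 times on the controls. None of 4 B cell, 3 erythroid and 4 bone marrow stroma markers tested was called, and at an unadjusted p under 0.05 1 stroma marker was higher. The sums of the stroma markers were 1.70 to 3.27 on the arrays labelled knockout against 1.19 to 1.76 on the controls, and those of the erythroid markers 0.183 to 0.205 on the arrays labelled knockout against 0.196 to 0.241 on the controls.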
